A study of Mus musculus with 2 samples.

Results

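The levels of 10 genes of the actin cytoskeleton were followed in cultured vascular smooth muscle cells (VSMCs) from mouse aorta: the cytoplasmic actins Actb and Actg1, the alpha-actinins Actn1 and Actn4, the tropomyosins Tpm1, Tpm2 and Tpm4, and the actin-binding genes Cald1, Flna and Vcl. They were chosen by symbol, 10 of the 32285 genes in the files, and all 10 were found. The name non-muscle fits Actb, Actg1, Actn4, Tpm4 and Flna, while Tpm1, Tpm2, Cald1, Vcl and Actn1 also make forms that are typical of smooth muscle. The values are counts per gene, which cannot tell these forms apart.

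Actin monomers join into filaments that carry force through the cell. Alpha-actinins and filamins crosslink the filaments, tropomyosins and caldesmon run along them and control which other proteins bind, and vinculin ties their ends to integrin adhesions. A VSMC in the vessel wall makes mainly the smooth muscle actin Acta2, while in culture and during repair of a vessel the cytoplasmic actins take over. Transcription of many of these genes is driven by serum response factor (SRF), whose cofactors are released into the nucleus when actin monomers are drawn into filaments.

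The cells were commercial primary VSMCs of C57BL/6 mice, used for no more than 3 passages, in 4 cultures. Young cells came from mice of 12 weeks and old cells from mice of 58 to 78 weeks. Another culture of young cells received angiotensin II (AngII), a hormone that raises blood pressure, at 1e-07 M for 48 h, and another culture of old cells received 20 nM siRNA against Piezo1, a stretch-activated cation channel. This dose is that of the labels and methods, and the results text of the study gives a higher one. A non-targeting pool was used as the control siRNA, and the study names it for the old cells of its immunostaining, but which of the sequenced cultures received it was not given in the sources used here. Each culture was marked with an antibody carrying a DNA tag, the cultures were mixed, and their RNA was counted in droplets as unique molecular identifiers (UMIs), each standing for 1 RNA molecule.

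A barcode with at least 2218 gene UMIs and at least 200 genes was taken as a cell, which left 13045 cells. Tag 1 was the only tag above its cutoff in 3144 cells (median 6816 UMIs), tag 2 in 497 (10663), tag 3 in 1500 (9454) and tag 4 in 1529 (9792). No tag passed in 5307 cells and several did in 1068. Tags 1 to 4 are called young, old, young + AngII and old + siPiezo1 after the numbering in the study's scheme of the experiment. That scheme was not stated to number the tags, and names are therefore given together with the tag. Each tag was taken as 1 culture, because no replicate cultures were told apart, so no test between groups was possible, and the intervals given cover counting error only.

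The siRNA is directed at Piezo1, which stood at 71.6, 89.7, 108 and 86.9 CPM in tags 1 to 4, where CPM is UMIs per 1000000 gene UMIs of the tag. The ratio of tag 4 to tag 2 was 0.969, and its 95% interval held 1. Its level therefore gives no check of the siRNA label of tag 4, and these cells are referred to as the library labelled siPiezo1. Xist, made by the inactive X chromosome, was at 113, 636, 118 and 768 CPM in tags 1 to 4, and 4 Y-linked genes ran the other way. Cells with Y-linked and no Xist UMIs were 54.1% of tag 1 and 55.5% of tag 3 but 19.5% of tag 2 and 13.8% of tag 4. Age and the sex of the cells can therefore not be told apart in the comparison of old with young cells, and every tag held some cells of the minor kind. Whether cells of the minor kind belong to the culture of their tag or were given a wrong tag was not tested.

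The VSMC markers (Acta2, Tagln, Myl9, Cnn1, Myh11, Smtn, Lmod1, Des and the member Cald1) summed to 1654 to 3174 CPM per tag, with the defining Myh11 at 1.94 to 7.89 CPM. Without Cald1 they summed to 903, 1708, 1086 and 687 CPM in tags 1 to 4. The fibroblast markers Pdgfra, Dcn, Lum, Col1a1 and Col3a1 summed to 1395, 813, 1171 and 1092 CPM, which was above the VSMC markers without Cald1 in tags 1, 3 and 4. Macrophage markers summed to 6.15 to 11.7 CPM, with Ptprc at 0 in tags 2 and 4, endothelial markers to 3.75 to 8.42 and epithelial markers to 7.14 to 12.0.

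The members lie on 10 different chromosomes. By Ensembl identifier in GENCODE vM21 (GRCm38), Actb is at chr5:142903115-142906754, Actg1 at chr11:120345690-120348542, Actn1 at chr12:80167547-80260371, Actn4 at chr7:28893248-28962340 and Tpm1 at chr9:67022590-67049406, all on the minus strand. Tpm2 is at chr4:43514711-43523765 and Flna at chrX:74223461-74249820, both on the minus strand. Tpm4 (chr8:72134975-72153142), Cald1 (chr6:34598500-34775473) and Vcl (chr14:20929398-21033676) are on the plus strand. All are protein-coding genes, and the values given for them are UMIs assigned to the gene as a whole.

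The site that SRF binds contains the CArG box, and the promoters of the members were searched for it. RefSeq windows on GRCm38.p6 were held for 9 members (10 windows, since Cald1 has 2 starts), and Actb was not matched. The 250 bases before the start of transcription were searched for the full CArG box, whose pattern reads the same on both strands. It was found in 2 of the 10 windows, and in 482 of 32851 windows over all genes (1.47%). Both are shown 5′ to 3′ on the strand of the gene, with the box in capitals. In Actg1 (chr11:120348496-120348745, minus strand) it spans the bases 90 to 81 before the start, and in Vcl (chr14:20929148-20929397, plus strand) the bases 227 to 218.
Actg1: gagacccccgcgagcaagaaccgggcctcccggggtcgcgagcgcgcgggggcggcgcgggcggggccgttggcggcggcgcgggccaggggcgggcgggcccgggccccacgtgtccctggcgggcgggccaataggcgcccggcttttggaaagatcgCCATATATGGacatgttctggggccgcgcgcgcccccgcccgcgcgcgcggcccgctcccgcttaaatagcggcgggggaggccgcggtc
Vcl: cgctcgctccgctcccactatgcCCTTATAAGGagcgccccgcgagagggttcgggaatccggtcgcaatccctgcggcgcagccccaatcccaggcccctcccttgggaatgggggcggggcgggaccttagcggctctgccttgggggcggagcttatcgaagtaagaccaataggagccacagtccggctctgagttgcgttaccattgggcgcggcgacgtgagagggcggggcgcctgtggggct
A match is a stretch of letters and not a measured binding site, and its part in the levels of the members was not tested.

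The 10 members made up 1.25%, 1.47%, 1.76% and 1.19% of all UMIs in young (tag 1), old (tag 2), young + AngII (tag 3) and siPiezo1-labelled cells (tag 4). Actb led by far, ranking between the fifth and the eighth of all genes in every tag. Of the 10 members, 8 were highest in tag 3, the exceptions being Tpm1 and Tpm2, which were highest in tag 2. In tag 4, 7 members had their lowest level, while Actg1, Tpm1 and Flna were lowest in tag 1. The share of all genes that were highest in tag 3 or lowest in tag 4 was not counted, so these counts are descriptions only. The spread between the highest and the lowest tag ran from 1.28-fold for Tpm2 to 2.10-fold for Cald1.

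Actb, the beta-cytoplasmic actin, was at 6404, 7429, 9474 and 6031 CPM in tags 1 to 4 (intervals 6373 to 6436, 7358 to 7501, 9425 to 9523 and 5993 to 6069). Actg1, the gamma-cytoplasmic actin, was at 1317, 1817, 2070 and 1526 CPM in tags 1 to 4 (intervals 1302 to 1331, 1781 to 1852, 2047 to 2093 and 1507 to 1545). For both genes tag 3 was highest and no interval overlapped its neighbour. They encode nearly the same protein and have processed pseudogenes, so reads that fall in shared sequence may be uncertain between them.

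Actn1, the alpha-actinin of stress fibres and adhesions, was at 509, 492, 704 and 419 CPM in tags 1 to 4 (intervals 500.5 to 518, 473 to 510.2, 691 to 718 and 409 to 429.5). Actn4, its relative in the cell cortex, was at 215, 192, 284 and 149.7 CPM in tags 1 to 4 (intervals 209 to 221, 181 to 204, 275 to 292 and 144 to 156). Both were highest in tag 3 and lowest in tag 4. Tags 1 and 2 overlapped for Actn1 and did not for Actn4.

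Tpm1 was at 1117, 1966, 1500 and 1633 CPM in tags 1 to 4 (intervals 1104 to 1130, 1929 to 2003, 1481 to 1520 and 1613 to 1653). It was the only tropomyosin member with all tags apart and with young cells lowest. Tpm2, which is abundant in muscle, was at 413, 425, 402 and 332 CPM in tags 1 to 4 (intervals 405 to 421, 408 to 443, 392 to 413 and 323 to 341), so that tag 1 overlapped both tag 2 and tag 3. The ratio of tag 3 to tag 2 was 0.946 (0.902 to 0.993). Tpm4, a non-muscle tropomyosin, was at 510.2, 518, 634 and 482 CPM in tags 1 to 4 (intervals 501 to 519, 499 to 537, 621 to 647 and 472 to 493), with tags 1 and 2 overlapping.

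Cald1, encoding caldesmon, which binds actin and myosin and holds down their interaction, was at 1627, 1466, 2030 and 967 CPM in tags 1 to 4 (intervals 1611 to 1643, 1434 to 1498, 2008 to 2053 and 952 to 982). Flna, the filamin that crosslinks filaments into networks, was at 170.2, 223, 246 and 206 CPM in tags 1 to 4 (intervals 165 to 176, 211 to 236, 238 to 254 and 199 to 213). Vcl, encoding vinculin, was at 178, 139, 215 and 134 CPM in tags 1 to 4 (intervals 172 to 183, 129 to 149, 207 to 222 and 128 to 139.9). Tags 2 and 4 overlapped for Flna and for Vcl, while the levels of Cald1 were apart in all tags.

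**Figure D1:**
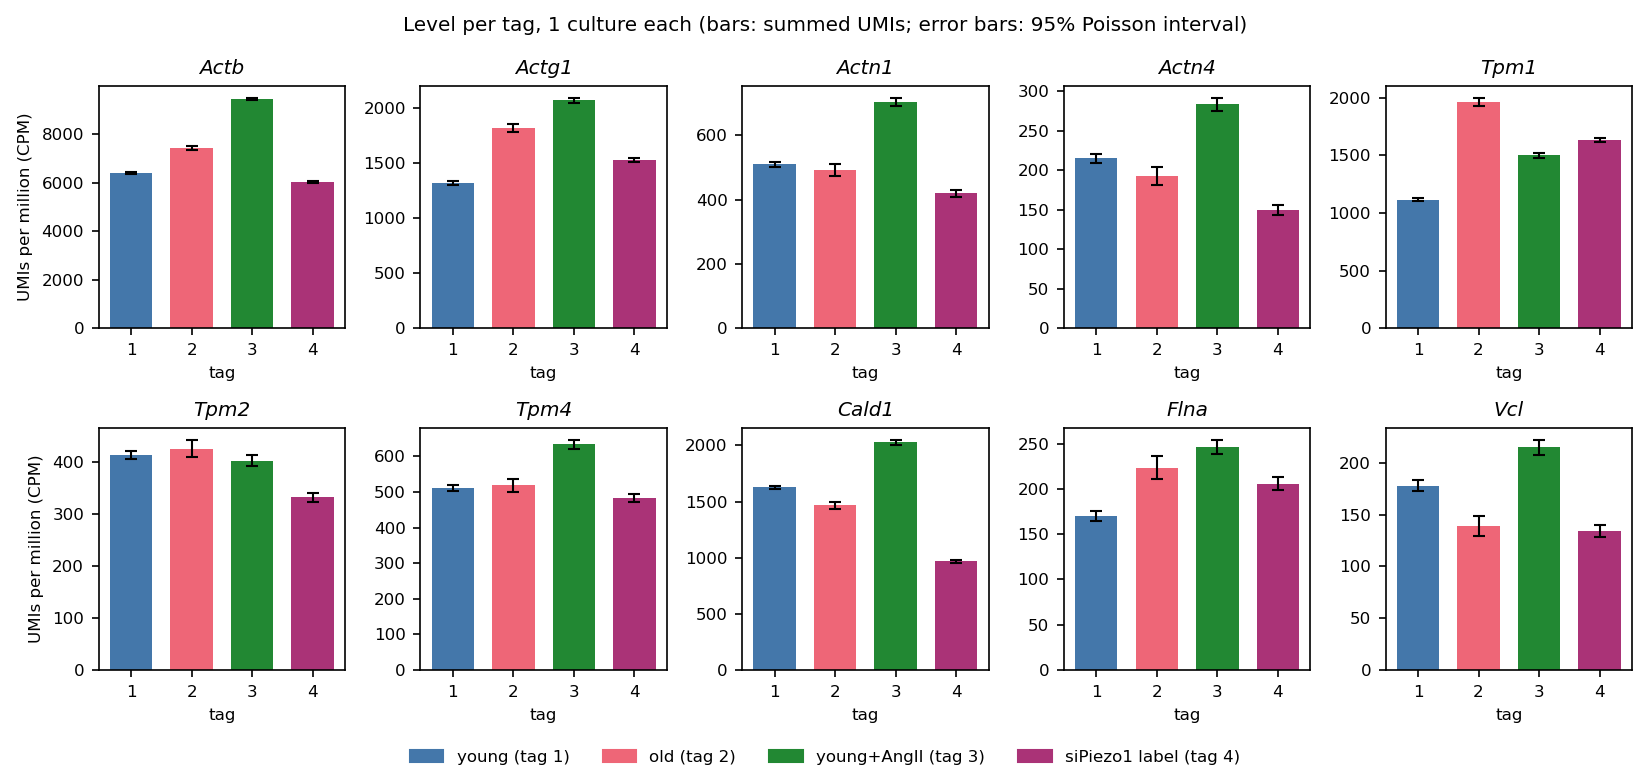
Level of each member in CPM (linear axes from 0) for the 4 tags, 1 culture each; bars are summed UMIs and error bars exact Poisson 95% intervals. Tag 3 is highest for 8 members, and Tpm1 and Tpm2 are highest in tag 2. The share of all genes with these orders was not counted.

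Barcodes with 1 to 100 UMIs, which carry free RNA, held Actb at 9981 CPM, Flna at 328 and Tpm2 at 815, all above the level in every tag. Vcl was at 144 CPM there and Cald1 at 1500, within the range of the tags. No cell type that lacks these genes was found among the cells, so shares of cells with a UMI are read as detection alone. With each cell thinned to 5000 UMIs, at least 1 Actb UMI was found in 99.8% to 100% of cells per tag and at least 1 Vcl UMI in 40.8% to 56.5%. Without thinning the share for Vcl was 60.6% to 73.9%.

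The old cells (tag 2) were set beside the young cells (tag 1) because the study asks how age changes VSMCs. Tpm1 was 1.76-fold higher in old cells (95% interval 1.72 to 1.80), Actg1 1.38-fold (1.35 to 1.41) and Flna 1.31-fold (1.23 to 1.398). Actb was 1.16-fold higher (1.15 to 1.17). Vcl was lower at 0.780-fold (0.722 to 0.843), as were Actn4 at 0.894-fold (0.836 to 0.955) and Cald1 at 0.901-fold (0.880 to 0.923). The intervals of Actn1, Tpm2 and Tpm4 held 1. These cultures also differ in the sex of their cells, as given above, and in the fibroblast markers, which summed to 1395 CPM in tag 1 and 813 in tag 2. Of the 3144 young cells, 1731 lay in cluster 2, described below and led by interferon-induced genes, which held 0 cells of tag 2. The part of these differences in the ratios was not tested.

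A fixed fold of 1.3 stands in for a test, and 3277 genes with at least 50 CPM in the tagged cells were held against it. Between old and young cells, 3 of the 10 members were at least 1.3-fold higher, against 12.9% of all genes, and 0 were at least 1.3-fold lower, against 16.2%. The median ratio was 1.023 for the members and 1.015 for all genes. In cells with Y-linked and no Xist UMIs (97 in tag 2 and 1700 in tag 1), Tpm1 stood at 2.30-fold and Actg1 at 1.56-fold. In cells with Xist and no Y-linked UMIs (313 and 154), Tpm1 stood at 1.24-fold and Actg1 at 1.13-fold, while Actb turned to 0.965-fold and Actn4 to 1.010-fold. Tpm1, Actg1 and Flna were thus higher in tag 2 in both kinds of cells, by amounts that differed. Only 112 of the 497 cells of tag 2 had more than 2 times its cutoff. The split is therefore not read as 2 separate measures of the same cultures.

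The young + AngII cells (tag 3) were set beside the young cells (tag 1) because AngII was used as a model of premature ageing. Actg1 was 1.57-fold higher (1.55 to 1.597), Actb 1.48-fold (1.47 to 1.49), Flna 1.45-fold (1.38 to 1.51) and Actn1 1.38-fold (1.35 to 1.42). Tpm1 at 1.34-fold (1.32 to 1.37) and Actn4 at 1.32-fold (1.27 to 1.37) also passed the fold of 1.3. Cald1 at 1.25-fold, Tpm4 at 1.24-fold and Vcl at 1.21-fold were higher by less. Tpm2, at 0.975-fold (0.944 to 1.01), was the only member whose interval held 1. Cluster 2, led by interferon-induced genes, held 1731 of the 3144 young cells and 3 cells of tag 3. Its part in these ratios was not tested.

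In this comparison 6 of the 10 members were at least 1.3-fold higher, against 15.2% of all genes, and 0 were at least 1.3-fold lower, against 12.6%. The median ratio was 1.33 for the members and 1.03 for all genes. In cells with Y-linked and no Xist UMIs (833 in tag 3 and 1700 in tag 1), Actb stood at 1.52-fold and Tpm1 at 1.43-fold. In the fewer cells with Xist and no Y-linked UMIs (94 and 154), Actb stood at 1.08-fold and Actg1 at 1.13-fold, Tpm1 turned to 0.884-fold and Vcl to 0.941-fold, and 0 members were at least 1.3-fold higher, against 8.27% of all genes in these cells. The higher level of the members in tag 3 was thus measured in the cells of the kind that makes up most of both tags, and was small or absent in the cells with only Xist UMIs. At a fold of 1.5 the count was 1, Actg1, whose ratio was above that of 95.7% of the tested genes. The share of all genes past a fold of 1.5 was not counted.

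The library labelled siPiezo1 (tag 4) was set beside the old cells (tag 2), since both came from old mice and both held mostly cells with Xist. All 10 ratios lay below 1, and the interval of Vcl alone held 1. Cald1 was lowest at 0.660-fold (0.642 to 0.678), followed by Actn4 at 0.779-fold (0.724 to 0.838) and Tpm2 at 0.781-fold (0.744 to 0.820). Actb was at 0.812-fold (0.802 to 0.821), Tpm1 at 0.831-fold (0.812 to 0.849), Actg1 at 0.840-fold (0.821 to 0.860) and Actn1 at 0.853-fold (0.816 to 0.892). Tpm4 at 0.931-fold and Flna at 0.922-fold were nearest to 1 besides Vcl, at 0.966-fold.

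Only Cald1 passed the fold, so that 1 of 10 members was at least 1.3-fold lower, against 2.08% of all genes, and 0 were at least 1.3-fold higher, against 3.33%. The median ratio was 0.835 for the members and 0.999 for all genes, for which the 10th percentile was 0.882. Below that percentile lay 7 of the members, Actb, Actg1, Actn1, Actn4, Tpm1, Tpm2 and Cald1. The count of members at least 1.3-fold lower was 5 in cells of 6000 to 12000 UMIs, against 4.39% of all genes there. Cald1 was lower in cells with only Y-linked UMIs (0.567-fold) and in cells with only Xist UMIs (0.676-fold). The comparisons share tags 1 and 2, so their ratios are not independent of each other.

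**Figure D2:**
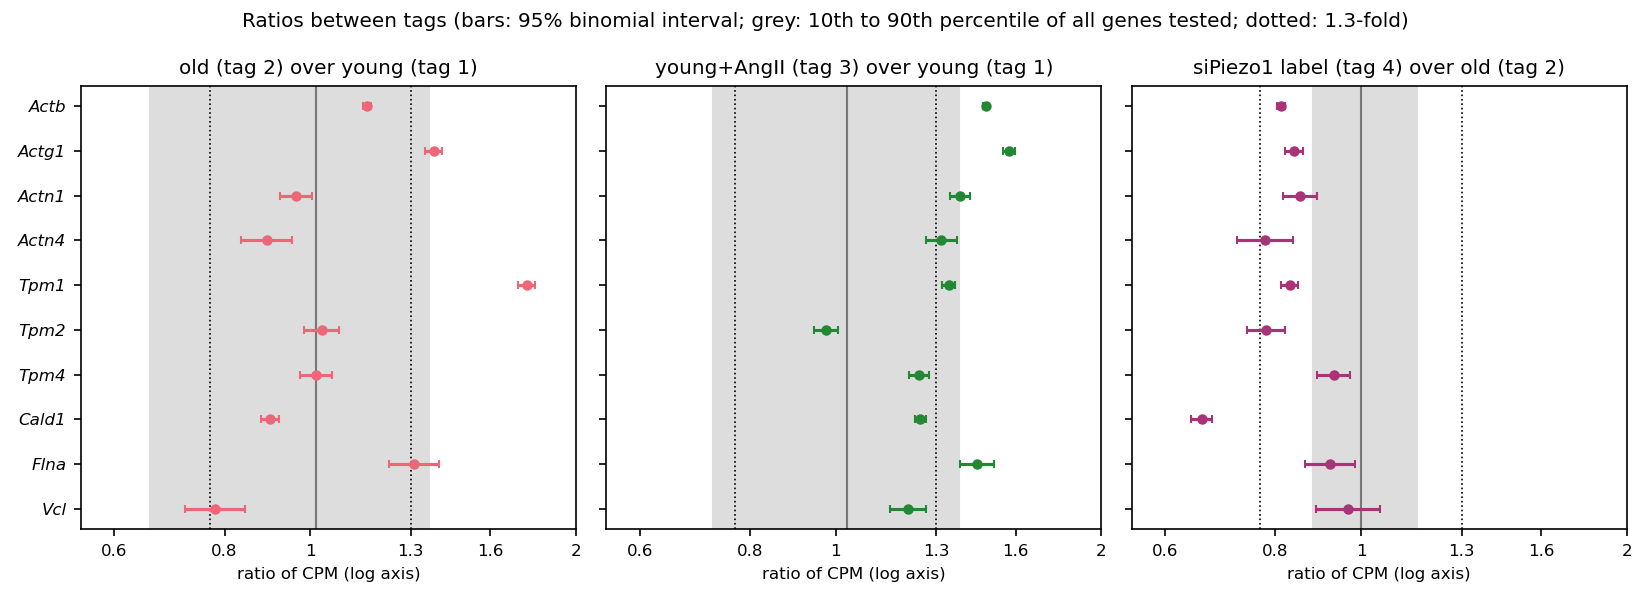
Ratio of CPM between tags for each member (log axis); error bars are exact binomial 95% intervals, the grey band runs from the 10th to the 90th percentile of the 3277 genes, the grey line is their median and the dotted lines mark 1.3-fold. In the middle panel all members but Tpm2 lie above 1.2, and in the right panel all lie below 1.

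The young + AngII cells and the old cells differed in which members were high. These tags differ in age, in AngII and in the sex of their cells, which can not be told apart. Tags 4 and 1 likewise differ in age, in the siRNA label and in sex. Of the 10 members, 4 were at least 1.3-fold higher in tag 3 than in tag 2, against 15.4% of all genes, with Vcl at 1.55-fold (1.43 to 1.68), Actn4 at 1.48-fold (1.38 to 1.58), Actn1 at 1.43-fold (1.37 to 1.495) and Cald1 at 1.39-fold (1.35 to 1.42). Tpm1 alone was at least 1.3-fold lower in tag 3, at 0.763-fold (0.746 to 0.781), against 10.4% of all genes. Against the young cells (tag 1), the library labelled siPiezo1 held 1 member at least 1.3-fold higher, against 13.9% of all genes, and 3 at least 1.3-fold lower, against 16.3%, with Tpm1 at 1.46-fold and Cald1 at 0.594-fold.

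Ratios within a family do not depend on the total of a library. Of the UMIs of the 6 actin genes, Actb took 75.6% to 80.0% per tag and Actg1 16.2% to 19.7%. Acta2, the smooth muscle actin, took 4.66% in tag 1, 5.78% in tag 2, 2.48% in tag 3 and 2.25% in tag 4, and the other 3 actins (Actg2, Actc1 and Acta1) took up to 0.104% each. Actg1 made 0.206 UMIs per UMI of Actb in tag 1, 0.245 in tag 2, 0.218 in tag 3 and 0.253 in tag 4. The old and siPiezo1-labelled cells thus held more Actg1 for their Actb than both cultures of young cells. They also held mostly cells with Xist, so age and sex can not be told apart here.

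Among the alpha-actinins, Actn1 took 70.2% to 73.4% and Actn4 26.2% to 29.6%, and the muscle genes Actn2 and Actn3 up to 0.228% each. Actn4 per Actn1 was 0.422, 0.391, 0.403 and 0.357 in tags 1 to 4 (intervals 0.409 to 0.436, 0.364 to 0.420, 0.389 to 0.417 and 0.341 to 0.374). Tag 4 was below tags 1 and 3, and its interval overlapped that of tag 2.

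The tropomyosins shifted more. Tpm1 took 47.9% of their UMIs in tag 1, 60.5% in tag 2, 51.9% in tag 3 and 58.6% in tag 4. Tpm2 per Tpm1 was 0.369, 0.216, 0.268 and 0.203 in tags 1 to 4 (intervals 0.361 to 0.378, 0.207 to 0.226, 0.261 to 0.276 and 0.197 to 0.209). Tpm4 per Tpm1 was 0.457, 0.264, 0.423 and 0.296 in the same order. Young cells with and without AngII had the larger ratios for both. Tpm3, the fourth gene of the family, took 10.5% to 12.5% of the UMIs. Age and sex can not be told apart here, since tags 2 and 4 held mostly cells with Xist. In cells with only Y-linked UMIs, Tpm1 took 46.35%, 63.6%, 50.9% and 58.6% of tropomyosin UMIs in tags 1 to 4. In cells with only Xist UMIs, tag 2 over tag 1 was 1.24 for Tpm1, 1.004 for Tpm2 and 0.990 for Tpm4. Tag 3 over tag 1 was 0.884, 0.846 and 1.001 for these genes.

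**Figure D3:**
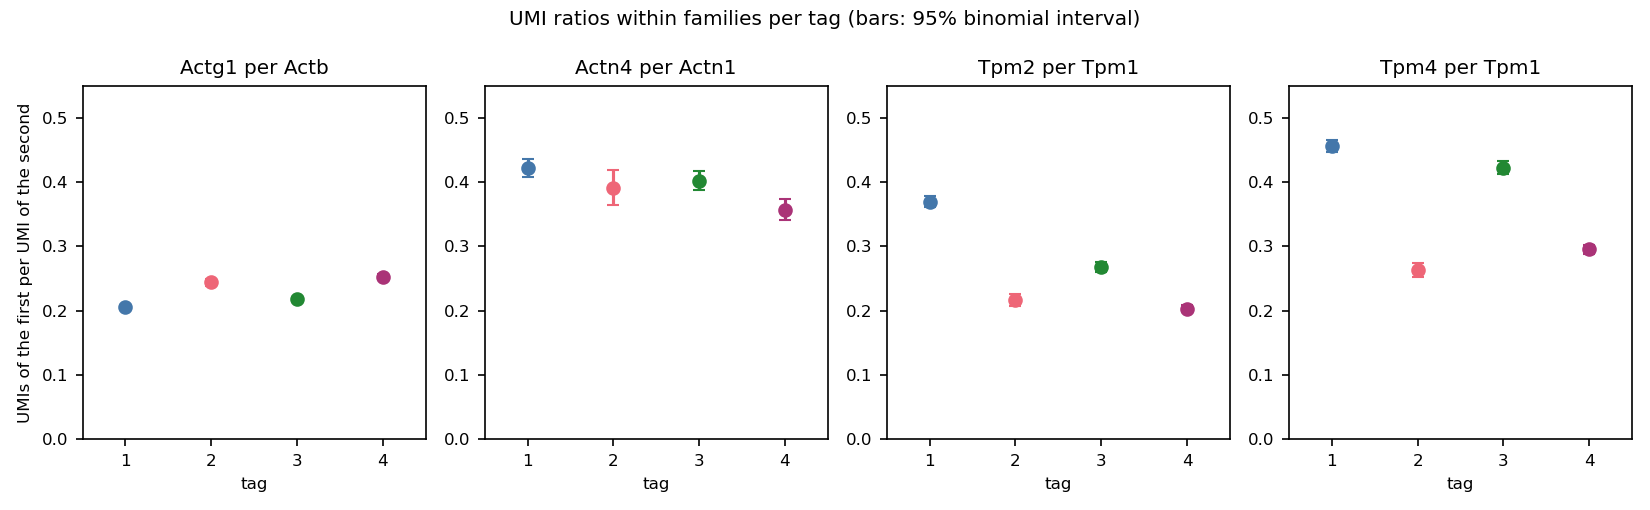
UMIs of 1 gene per UMI of its relative for the 4 tags (linear axes from 0); points are summed UMIs and error bars exact binomial 95% intervals. Tpm2 and Tpm4 per Tpm1 are lower in tags 2 and 4 than in tags 1 and 3, and Actg1 per Actb is higher there. Tags 2 and 4 also differ from tags 1 and 3 in the sex of their cells.

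Cells of 1 tag varied widely in these genes. In tag 1, Actb ran from 2114 CPM at the 10th to 10450 at the 90th percentile of cells, with a median of 5506. After thinning to 5000 UMIs, the variance of Actb over cells was 9.60 to 12.0 times its mean, where counting noise alone gives 1. The variation beyond counting noise, as a percentage of the mean, was 42.9% to 55.8% for Actb and 32.1% to 67.7% for Cald1. Tpm4 was among the steadiest at 35.9% to 39.9%. Vcl was the most variable in tags 2 to 4, at 85.9% to 104%, and Tpm2 in tag 1, at 78.5%. Cald1 varied least in tag 3 and most in tag 4.

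Across the cells of a tag the members varied together. Pearson's r of log counts, with each cell thinned to 5000 UMIs and averaged over the 4 tags, was above 0 for all 45 pairs of members and had a median of 0.158, against 0.004 between members and all genes. The pair of cytoplasmic actins was highest, with r of 0.516 (0.450 to 0.599 over tags). Actg1 and Tpm1 followed at 0.381 (0.339 to 0.417), and Actb was at 0.305 with both Tpm1 and Tpm4. Actn1 with Tpm2 was lowest at 0.052, and ran from -0.034 to 0.101 over tags. These values are descriptions, since cells of 1 culture share their source and most counts are small. All genes from 50 CPM upward entered the value of 0.004, while the lowest level of a member was 134 CPM (Vcl in tag 4). Small counts draw r toward 0 and the genes were not matched in level. How far the members exceed genes of like level was therefore not measured.

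**Figure D4:**
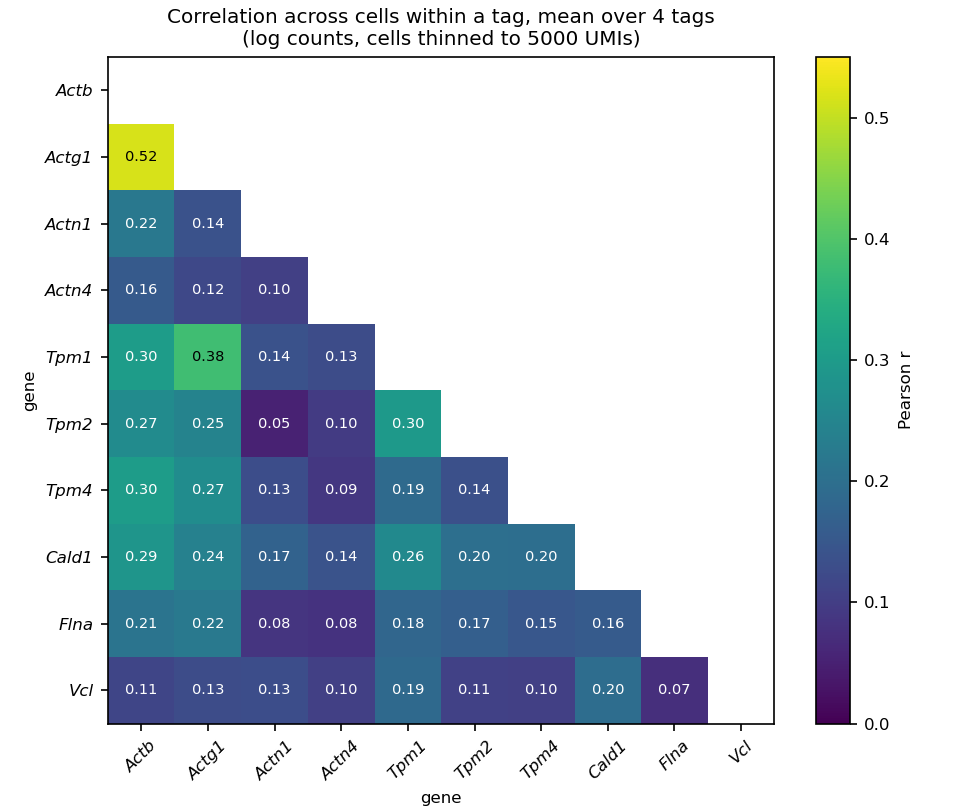
Pearson's r of log counts between members across the cells of a tag, averaged over the 4 tags, with cells thinned to 5000 UMIs (colour scale from 0). Actb and Actg1 stand out at 0.516, and the pairs of Actn1, Actn4 and Vcl lie near 0.1.

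The genes most like each member were sought among the 3277 genes. For Actb the closest was Actg1, then Tmsb4x at 0.432, which encodes thymosin beta-4, a binder of actin monomers. Tmsb4x was also the second closest to Actg1 at 0.390. Actb was the second closest to Actn1, Actn4 and Flna and the closest to Tpm4. Tpm2 was nearest to the contractile genes Tagln (0.403) and Acta2 (0.391), and Cald1 likewise (0.332 and 0.290). Vcl was nearest to Pdlim5 (0.221), a gene of actin-anchored LIM proteins, and Actn1 to Thbs1 (0.225), which encodes the matrix protein thrombospondin. Actn4 had the weakest partner, Tagln at 0.171.

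Cells rich in mitosis markers were compared with the other cells of the same tag. Cells with at least 5 UMIs of 8 mitosis markers, called mitotic in the settings below, made up 29.7% to 31.6% of each tag. They are cycling cells and not only cells in mitosis. The rule is a fixed number of UMIs, and median depth ran from 6816 UMIs in tag 1 to 10663 in tag 2. Deeper cells pass it more easily, so these shares do not compare cycling between tags. In cluster 5, described below and led by the cell cycle genes Ccne2 and Ccne1, 84.4% of cells passed this rule. Actb was higher in them in all 4 tags, by 1.07-fold in tags 1 and 3, 1.23-fold in tag 2 and 1.22-fold in tag 4. Actn4 was also higher in all 4, from 1.09-fold in tag 3 to 1.53-fold (1.41 to 1.66) in tag 4. Actg1 had 3 intervals above 1, with tag 1 at 1.01-fold (0.984 to 1.03).

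Cald1 lay below 1 in all 4 tags, between 0.875-fold in tag 1 and 0.969-fold in tag 4, and 3 of its intervals were below 1. Actn1 lay between 0.921-fold and 0.985-fold, with 2 intervals below 1. The ratios of Actn4 and Actn1 thus lay on opposite sides of 1. Tpm1, Tpm2, Tpm4, Flna and Vcl had different directions in different tags, with Flna at 0.896-fold (0.840 to 0.956) in tag 1 and its other 3 intervals holding 1. The cells rich in mitosis markers were deeper, with a median of 8901 UMIs against 6087 in tag 1 and 11706 against 8924 in tag 4. The part of depth was not tested. Called doublets were kept, and in cluster 4, described below, 80.0% of cells were called doublets and 55.6% passed the rule. The median ratio of all genes was 0.989 to 1.01.

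**Figure D5:**
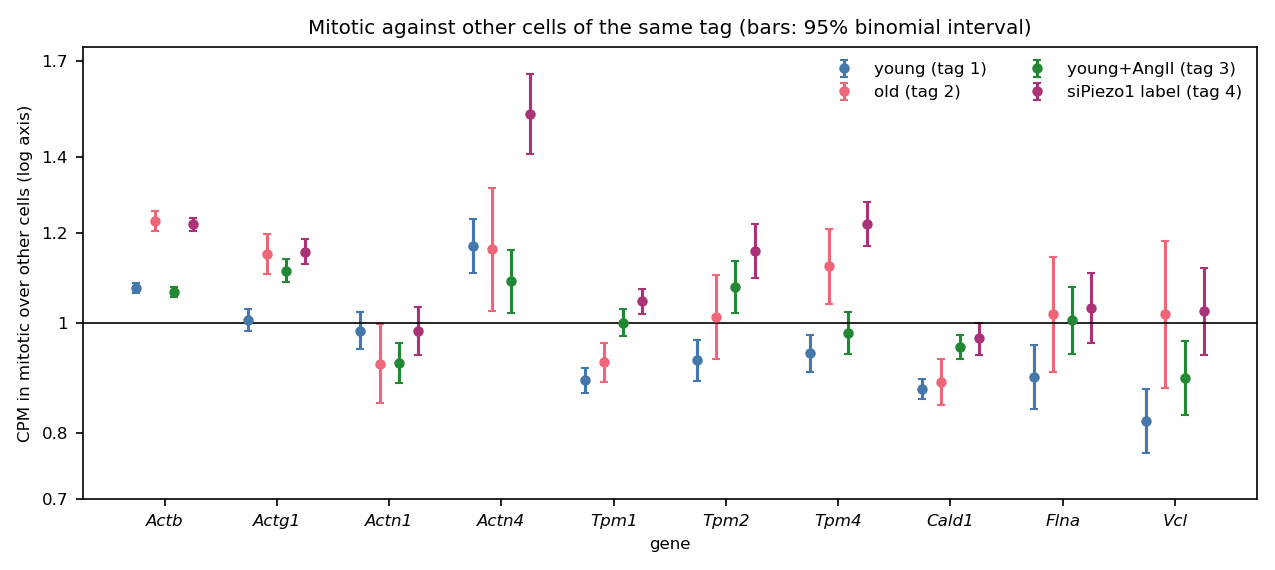
Ratio of CPM in cells with at least 5 UMIs of mitosis markers to the other cells of the same tag (log axis), with exact binomial 95% intervals. Actb and Actn4 lie above 1 in all 4 tags and Cald1 below 1 in all 4.

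The cells were clustered without the members among the variable genes, which gave 14 clusters, several of them mostly of 1 tag. Clusters 0 and 1 held 216 and 113 of the 497 cells of tag 2, and 536 and 389 of the 1529 of tag 4. No tag passed in 1626 of the 2529 cells of cluster 0 and 1358 of the 1975 of cluster 1, against 101 of 1935 in cluster 2. Whether the tagged cells stand for all cells of their culture was not tested. Over the 12 clusters with at least 100 cells, Actb ran from 2685 CPM in cluster 10 to 10479 in cluster 5, in which 343 of 729 cells were of tag 3 and 268 had no tag, and which is led by the cell cycle genes Ccne2 and Ccne1. Tpm1 was highest at 2511 CPM and Flna at 297 in cluster 6, led by the contractile genes Cnn1, Acta2, Lmod1, Myl9 and Tagln. In that cluster Tpm2 was at 691 CPM and Cald1 at 2095. Cluster 8, of shallow cells (median 3279 UMIs), held the highest Tpm2 at 781 CPM and the lowest Vcl at 28.9. Vcl thus spread 8.81-fold between clusters, against 1.94-fold for Tpm4, 23.1-fold for Acta2 and 14.3-fold for Tagln. The lowest value of Vcl rested on 51 UMIs, and the next lowest of these clusters, cluster 10, was at 77.7 CPM.

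Ratios between tags were also taken inside the clusters that held at least 20 cells of both tags. Of 40 such ratios of tag 4 to tag 2 (10 members in 4 clusters), 33 were below 1 and 25 had intervals below 1. Cald1 ran from 0.650-fold to 0.907-fold, Tpm1 from 0.804-fold to 0.930-fold and Actb from 0.769-fold to 0.906-fold, each below 1 in 4 of 4 clusters. Most young cells (tag 1) entered no ratio, since 1731 of 3144 were in cluster 2 and 528 in cluster 7. Cluster 2 has the interferon-induced genes Cxcl9, Ifit3, Ifit3b and Rsad2 among its leading genes, and held 0 cells of tag 2 and 3 of tag 3. Cluster 7 has Ifi206 and Psmb8 among its leading genes, and held 0 cells of either tag. The part of this state of the young cells in the ratios over all cells was not tested. Beside tag 3, the young cells used numbered 54, 73, 338 and 37 in clusters 0, 3, 4 and 5. Beside tag 2 they numbered 54, 32 and 338 in clusters 0, 1 and 4. The ratios to tag 1 inside clusters therefore do not describe the young culture as a whole. For tag 3 over tag 1, 32 of 40 ratios were above 1 and 14 had intervals above 1. The median over clusters was below the ratio over all cells for all 10 members, with Actb at a median of 1.03-fold and Actg1 at 1.18-fold, while Vcl reached 1.64-fold in 1 cluster. For tag 2 over tag 1, 21 of 30 were above 1, 13 had intervals above 1 and 1 had its interval below 1. Tpm1 was higher in 3 of 3 clusters (1.06-fold to 1.48-fold) and Actg1 in 3 of 3 (1.11-fold to 1.25-fold), and Cald1 stood above 1 in 3 of 3 (1.12-fold to 1.22-fold), opposite to its ratio over all cells. Vcl and Actn4, which were lower over all cells, had no interval below 1 in these 3 clusters and medians of 0.997-fold and 0.957-fold. Cluster 4, which enters all these counts, had 80.0% of its cells called doublets. The same counts were not made for all genes, and the intervals cover counting error only, so the counts are not read as particular to the members.

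Genes that act beside the members were counted by lists, to be read beside the shares of all genes given above for each comparison. Of 9 genes of actin turnover with at least 50 CPM, 2 were higher and 1 lower in old than in young cells by the fold of 1.3, with Tmsb4x at 1.79-fold (13572 against 7601 CPM) and Gsn, which encodes the severing protein gelsolin, at 0.523-fold. With AngII, 2 of 9 were higher and 0 lower, with Wdr1, a helper of cofilin, at 1.61-fold. In the library labelled siPiezo1, Tmsb4x was the 1 gene lower, at 0.620-fold of the old cells.

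Of 5 non-muscle myosin genes, 1 was higher and 1 lower in old than in young cells, with the heavy chain Myh10 at 1.97-fold and the light chain Myl12b at 0.589-fold. With AngII, 2 were higher and 1 lower, with the heavy chain Myh9 at 1.49-fold and Myl12b again at 0.589-fold. In tag 4 against tag 2, 0 of 5 passed. Of 10 other crosslinkers and relatives, 1 was higher and 1 lower in old cells, 4 were higher and 1 lower with AngII, and 0 passed in tag 4 against tag 2.

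Of 9 focal adhesion genes, 2 were higher in old cells (Lpp at 1.47-fold and Vasp at 1.47-fold), 3 were higher with AngII (Zyx at 1.56-fold among them), and 0 passed in tag 4 against tag 2. Among SRF, its cofactors and targets, 4 of 6 genes had at least 50 CPM, namely Mrtfa, Ccn1, Ccn2 and Ankrd1. All 4 were higher with AngII, against 15.2% of all genes, with Ccn2 at 2.25-fold and Ankrd1 at 2.06-fold. In tag 4 against tag 2, 2 were lower, against 2.08% of all genes, with Ankrd1 at 0.466-fold and Ccn2 at 0.620-fold. This short list leaves out the contractile genes, of which Acta2 was lower and Tagln higher with AngII. It is not a measure of SRF activity. In old cells Ccn2 was lower at 0.453-fold. Srf itself was at 4.89 to 8.24 CPM.

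Of 3 contractile genes with at least 50 CPM, 3 were higher in old than in young cells (Tagln at 2.30-fold and Myl9 at 1.66-fold), 1 was higher with AngII (Tagln at 1.68-fold, with Acta2 at 0.777-fold), and 3 were lower in tag 4 than in tag 2, with Acta2 at 0.306-fold and Myl9 at 0.404-fold. Of 5 reference genes often taken as steady, 0 passed in the comparison of tag 2 with tag 1 or of tag 4 with tag 2, and 1 was lower with AngII, Gapdh at 0.704-fold. Actb, itself widely used as such a reference, spread 1.57-fold between tags. Of the 6 mitosis markers with at least 50 CPM, 4 were lower with AngII, and 0 passed in the other comparisons.

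Of 4 fibroblast markers with at least 50 CPM, 3 were lower in old than in young cells, 3 were lower and 1 higher with AngII, and 3 were higher in tag 4 than in tag 2. Their median ratios were 0.446, 0.632 and 1.49 in these 3 comparisons, against 1.02, 1.33 and 0.835 for the members. The median of the fibroblast markers thus also differed from that of all genes in each comparison. Dcn went against this median in the first 2, at 1.13-fold and 1.49-fold. In old against young cells the median of the members (1.023) was near that of all genes (1.015). The part of the fibroblast markers in the ratios of the members was not tested. The cells with no tag held the members at 1.44% of their UMIs. Actb at 7344 CPM, Tpm1 at 1817 and Cald1 at 1415 were each between the lowest and the highest tag. Tpm2, at 458 CPM in these cells, was above every tag, as was Actn4 per Actn1 at 0.468.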

How the data were processed

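The authors deposited raw UMI counts, made with Cell Ranger 4, for 32285 genes and 4 hashtags for 2472397 unfiltered barcodes. The genome build was not given in the sources used here. Gene expression and hashtag libraries share 1 matrix and so the same barcodes. The lowest UMI number of a cell, 2218, comes from the 10000 deepest barcodes, as their 99th percentile over 10. Hashtag cutoffs were 36, 52, 61 and 41 UMIs for tags 1 to 4. Own-tag medians were 364, 76, 113 and 67 UMIs, against 10, 15, 31 and 20 in cells without a tag. The tags held 5577355 to 24120561 gene UMIs.

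For CPM, the UMIs of a gene were summed over the cells of a tag, divided by all their gene UMIs and multiplied by 1000000, with exact Poisson 95% intervals. Ratios have exact binomial and shares exact Clopper-Pearson intervals (scipy 1.17.1). PCR and the spread between cultures are not in them. A UMI of a 3′ library counts 1 molecule, so no length scaling was made. Cells are not replicates, so no p-value is given. Scrublet (scanpy 1.11.5) called 2606 cells (20.0%) doublets, which were kept. Clusters came from Seurat 5.3.0 in R 4.3.3 (1996 variable genes, 30 components, 20 neighbours, resolution 0.8), after 4 members had been taken out of the variable genes. Scripts were tested on simulated data.

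Named genes are the members, their families, Piezo1, the sex-linked genes, the 2 genes most like each member, and the 2 genes with the largest ratio of each list, of which some are given here. The cell type marker lists were VSMC, macrophage, endothelial, fibroblast, epithelial and mitosis. The members and lists were chosen with earlier results of these data known. The microarray, imaging and force data of the study were not analysed here.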

Additional observations from a re-analysis of the deposited data

How the results depend on the processing

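No paired analysis was possible because each tag is 1 culture and no replicate was left out for the same reason. The counts of members past the fold in the old (tag 2) against the young cells (tag 1) were 3 higher and 0 lower. A fold of 1.5 gave 1 higher, and the share of all genes at that fold was not counted. A tag above 2 times its cutoff gave 1 higher, against 13.4% of all genes, and only-Xist cells gave 0, against 4.76%. The count lower became 1 (Vcl, near the fold at 0.780) without called doublets and with a tag at least 3 times the next. The same count came with a tag above 2 times its cutoff, after thinning and in cells of 6000 to 12000 UMIs. The mean of per-cell CPM, scaling by the median ratio and leaving out mitotic cells also gave 1. Between 16.0% and 17.8% of all genes were as much lower under these settings. For young + AngII (tag 3) against young cells, the 6 higher became 1 at a fold of 1.5. In only-Xist cells they became 0, against 8.27% of all genes. For tag 4 against tag 2, the 1 lower became 2 without called doublets, with a tag above 2 times its cutoff and after thinning. The count was also 2 with the mean of per-cell CPM and in only-Xist cells. Between 2.35% and 4.55% of all genes were as much lower under these settings. The count was 3 without mitotic cells, against 2.78% of all genes. It was 5 in cells of 6000 to 12000 UMIs, against 4.39%, and in only-Y-linked cells, against 7.02%. Tpm1 in tag 3 over tag 1 turned to 0.884 in only-Xist cells. The cause was not tested. The only-Xist cells, the tag with the largest centred log ratio and the ratios within clusters were added after the data were seen.

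Over 14 settings, the 10 ratios of tag 4 to tag 2 stayed below 1 except for Vcl, which passed 1 under 3 settings and reached 1.08 with a tag at least 3 times the next, where tag 2 had 179 cells. Tpm1 in tag 2 over tag 1 ran from 1.24 to 2.30. Of 420 ratios under these settings, 267 stayed inside the counting interval. Other results were also held against changed settings. Family shares were counted as the same in 146 cases and as moved in 78. For the ratios of mitotic to other cells these counts were 58 and 22, and for the correlations 113 and 22. Tag 2 had the fewest cells (497). The spread between cultures was not measured.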
